A study of Solenopsis invicta with 3 samples.

Results

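The 100 most abundant stable transcripts of fire ant worker antennae were chosen from the official gene set (entries named SINVm1_gene) by mean TPM, a per-length measure of the share of all transcripts, over 3 RNA-Seq libraries. An entry had to differ by less than 2-fold in TPM between every pair of libraries, a condition that 7885 of the 15589 SINVm1_gene entries met (50.6%), and the 100 with the highest mean TPM among these are called members here. The reference to which the reads were assigned held 19703 entries in all, the others being 3641 assembled transcript models (XLOC) and 473 models of odorant receptors (SiOR). The same TPM values chose the members and are described here, so no test was made of their abundance or of their stability.

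Antennae came from foraging workers of *Solenopsis invicta*, the red imported fire ant, in 3 classes with 1 library each. In polygyne colonies, SB/Sb workers (P_Bb) and SB/SB workers (P_BB) were taken, and the class M_BB held SB/SB workers of monogyne colonies. SB and Sb are the variants of the social supergene, polygyne colonies keep several queens and monogyne colonies a single queen. Each library was a pool of 4 colonies, P_Bb and P_BB from the same 4 polygyne colonies and M_BB from 4 monogyne colonies. Social form and colony therefore cannot be told apart in any comparison with M_BB. Between P_Bb and M_BB the supergene genotype differed as well, and it cannot be told apart from social form and colony there. RNA of each colony was amplified separately with the NuGEN Ovation kit and the cDNA was pooled before sequencing. With 1 library per class, no difference below has a replicate check, and every interval printed covers counting error only. The libraries held 3351500, 3421923 and 3948464 expected counts for P_Bb, P_BB and M_BB. The SiOR entries together took 0.736%, 0.777% and 0.676% of all TPM in the same order, and the most abundant of them, SiOR1_co, stood at 468, 656 and 657 TPM.

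For TPM, the reads assigned to an entry are divided by its effective length, the number of positions at which a fragment of the library could start, and are scaled to the same sum in every library. It therefore estimates the share of transcript molecules among the reference entries, whereas the expected count follows the share of the fragments assigned to them. Fragments assigned to no entry are in neither share. In an insect antenna the most abundant messages commonly include those of small secreted proteins of the sensillum lymph, such as odorant-binding and chemosensory proteins, together with messages that every cell needs, such as those of ribosomal and cytoskeletal proteins. Which of these the members encode cannot be read from the identifiers. None of the 19703 identifiers matched the RefSeq table of assembly UNIL_Sinv_3.0 (0 matched), and 1 member alone was named in the sources used here. That member is SINVm1_gene_12026, listed by the study as polyadenylate-binding protein 1, a protein family that binds the poly(A) tail of messages and takes part in their translation and turnover. In pooled antennae, fewer cells of a type and less RNA per cell cannot be told apart.

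The members held a large and nearly equal share of the transcript pool in the 3 classes. They made up 39.7%, 39.2% and 39.0% of all TPM in P_Bb, P_BB and M_BB, or 41.8%, 41.6% and 41.0% of the TPM of SINVm1_gene entries alone. By number they were 0.957%, 0.956% and 0.948% of the SINVm1_gene entries with a TPM above 0 in these libraries. Their share of the fragments assigned to the 19703 entries was smaller. It was 18.7% of expected counts in P_Bb (95% Clopper-Pearson interval 18.63% to 18.72%), 18.3% in P_BB (18.26% to 18.34%) and 18.5% in M_BB (18.41% to 18.49%). The range over the libraries was thus 39.0% to 39.7% by TPM and 18.3% to 18.7% by counts.

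**Figure D1:**
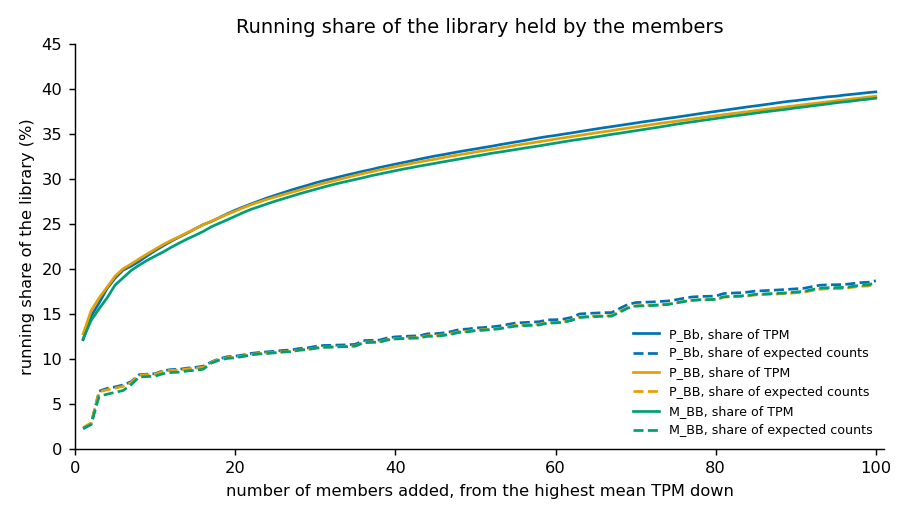
Running share of each library (y axis, percent) held by the members as they are added from the highest mean TPM down (x axis). Solid lines give TPM and broken lines expected counts, with 1 colour per library. The solid lines begin at 12.1% to 12.8% with a single entry and end at 39.0% to 39.7%, and the broken lines end at 18.3% to 18.7%.

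The share was concentrated in very few entries. SINVm1_gene_06964 alone stood at 121306 TPM in P_Bb, at 127705 in P_BB and at 122089 in M_BB, so that 12.1%, 12.8% and 12.2% of all TPM belonged to this entry. Its expected counts were 74919, 80650 and 89295, which is 2.24%, 2.36% and 2.26% of all expected counts. It was 4.63, 4.95 and 5.92 times as abundant by TPM as the member in second place in these libraries. Its highest library exceeded its lowest by 1.05-fold, in TPM and in normalized counts alike. The first 10 members held 22.0%, 22.2% and 21.4% of all TPM and the first 50 held 33.3%, 33.0% and 32.5%. The most abundant 6, 6 and 7 members of each library reached 50% of the TPM held by all members. Over all 19703 entries, 50% of the TPM was reached with 209 entries in P_Bb, 204 in P_BB and 207 in M_BB. Without SINVm1_gene_06964 the other members held 31.3%, 30.3% and 30.5% of the remaining TPM, so that P_BB, second by share with this entry, was then the lowest.

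The entries in the next places were far less abundant than the first. SINVm1_gene_06799 was second in every library, with 26208, 25808 and 20630 TPM in P_Bb, P_BB and M_BB. It was lower in M_BB than in both polygyne libraries, and its normalized count (the expected count divided by the library's size factor) gave a log2 ratio of P_Bb to M_BB of 0.35. SINVm1_gene_03973 followed with 14691, 14225 and 13012 TPM. This entry is 2505 bases long and took the most reads of all members, 121833, 117886 and 124475 expected counts. It took more reads than SINVm1_gene_06964 in each library, at a far lower TPM.

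SINVm1_gene_00672 reached 16080 TPM in P_Bb against 12010 in P_BB and 12100 in M_BB, and so ranked 3, 5 and 6 among SINVm1_gene entries in these libraries. SINVm1_gene_11838 ran the other way, with 11486, 12318 and 14263 TPM, and ranked 5, 4 and 3. Both entries are short, 348 and 306 bases. SINVm1_gene_05012 was more even, at 8872, 8129 and 8015 TPM. SINVm1_gene_07961 stood at 4417, 5217 and 8116 TPM and moved from place 16 in P_Bb to 11 in P_BB and 7 in M_BB. It was the member among the first 10 with the widest spread, 1.84-fold by TPM.

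The last 3 of the first 10 were close to each other in level. SINVm1_gene_06000 had 5345, 5766 and 5950 TPM, SINVm1_gene_12835 had 6113, 5415 and 5335 and SINVm1_gene_10262 had 5803, 5299 and 4721. Their highest library exceeded their lowest by 1.11-fold, 1.15-fold and 1.23-fold, against an upper quartile of 1.19 over all members. The remaining members declined slowly, from 5032 mean TPM in place 11 to 983 in place 100. The median member stood at 1562, 1518 and 1543 TPM in P_Bb, P_BB and M_BB.

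**Figure D2:**
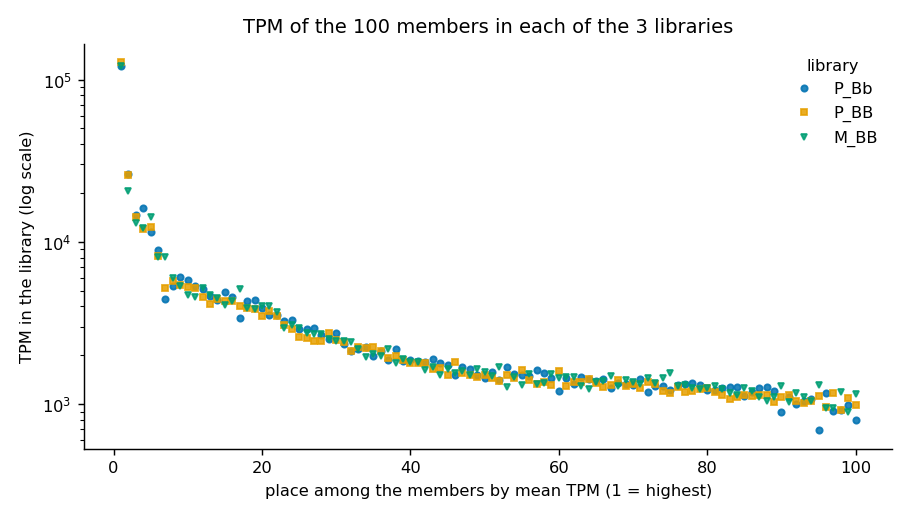
TPM of each of the 100 members in P_Bb (circles), P_BB (squares) and M_BB (triangles), on a log scale, against the member's place by mean TPM. The points of the 3 libraries lie close together at nearly every place, and those of SINVm1_gene_07968 in place 95, at 689, 1117 and 1306 TPM, lie farthest apart.

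The order of the members was largely shared by the libraries. Ranked among all SINVm1_gene entries, 94 of the 100 were in the top 100 of P_Bb, 98 in that of P_BB and 97 in that of M_BB. The median member moved 7 places between its best and its worst library, 43 members moved at most 5 places and 84 at most 20. As a description over the 100 members, which share the libraries and were chosen for a ratio under 2-fold, Spearman's rho of TPM was 0.97 for P_Bb and P_BB, 0.95 for P_BB and M_BB and 0.93 for P_Bb and M_BB. The 3 members that moved most were SINVm1_gene_07968, ranked 154, 89 and 75 in P_Bb, P_BB and M_BB, SINVm1_gene_05150, ranked 135, 100 and 92, and SINVm1_gene_13366, ranked 118, 92 and 78. All 3 stood lowest in P_Bb and highest in M_BB. TPM falls slowly with rank near place 100. The differences of these 3 were not small, however, at 1.90-fold, 1.45-fold and 1.45-fold by TPM, all among the 5 largest ratios of the members.

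The ratio condition removed very little at this level of abundance. Of all SINVm1_gene entries, 102 had a mean TPM at or above that of the member in place 100, and 100 of them met the condition. The pair left out was SINVm1_gene_05940, with 5798, 7561 and 13474 TPM in P_Bb, P_BB and M_BB (2.32-fold), and SINVm1_gene_13864, with 503, 654 and 2937 TPM (5.84-fold). Both stood lowest in P_Bb and highest in M_BB, and by mean TPM they ranked 6 and 66 among SINVm1_gene entries. The next entries that missed the condition ranked lower, namely SINVm1_gene_00710 at rank 153 with 681, 418 and 1020 TPM, SINVm1_gene_10532 at rank 165 with 603, 990 and 347, and SINVm1_gene_10363 at rank 199 with 322, 634 and 702. SINVm1_gene_00710 is 147 bases long and its TPM rested on only 25.6, 16.7 and 41.3 normalized counts.

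At the lower edge of the abundance range, the members in places 98 to 100 were SINVm1_gene_12026, SINVm1_gene_13932 and SINVm1_gene_05150, with mean TPM of 1006, 991 and 983. The next stable entries were SINVm1_gene_00706, SINVm1_gene_09110 and SINVm1_gene_06882, with 968, 963 and 954. The step across the edge, from 983 to 968, was larger than that from 991 to 983 and close to that from 1006 to 991. Of the XLOC models, 8 had a mean TPM at or above the member in place 100 and all 8 were under 2-fold. The most abundant were XLOC_043984 with 6031, 8818 and 6937 TPM, XLOC_043981 with 4392, 6038 and 3679, and XLOC_001500 with 3223, 4020 and 3565. All 3 were highest in P_BB. No SiOR entry reached that level (0 of 473), and SiOR251 and SiOR211, next after SiOR1_co, had mean TPM of 109 and 98.2.

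The spread of the members over the 3 classes was small. The highest library exceeded the lowest by a median of 1.14-fold in TPM (lowest 1.03, highest 1.90) and by a median of 1.14-fold in normalized counts. A ratio under 1.1 was found for 31 members, from 1.1 to under 1.2 for 46, from 1.2 to under 1.5 for 20 and of at least 1.5 for 3. Over the 9260 entries whose normalized count averaged 10 or more, the median ratio was 1.26. Much of that difference went with depth. The 2155 SINVm1_gene entries with at least as many reads as the member with the fewest (a mean normalized count of 321) had a median ratio of 1.14, equal to that of the members at this rounding, and 99.4% of them were under 2-fold. The 100 stable entries that follow the members by mean TPM, the 300 after those and the next 500 had medians of 1.15, 1.14 and 1.15. The median of the members was thus close to those of less abundant stable entries and of the 2155 entries. Those 2155 include the members and are not matched to them in depth, since the median member had 2798 normalized counts.

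The 5 most even members were SINVm1_gene_08435, SINVm1_gene_09024, SINVm1_gene_11962, SINVm1_gene_01030 and SINVm1_gene_12596, at ratios of 1.03 each. SINVm1_gene_08435 stood at 1844, 1798 and 1824 TPM in P_Bb, P_BB and M_BB, and SINVm1_gene_11962 at 1854, 1868 and 1909. SINVm1_gene_11962 had 8610, 8496 and 8629 normalized counts, a ratio of 1.02. SINVm1_gene_09024 had 2185, 2244 and 2188 TPM, SINVm1_gene_01030 had 1222, 1257 and 1258, and SINVm1_gene_12596 had 1075, 1042 and 1048. These 5 differ in length from 306 to 1398 bases.

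The 5 least even members shared an order. SINVm1_gene_07968 had 689, 1117 and 1306 TPM in P_Bb, P_BB and M_BB, on 355, 590.1 and 800.0 expected counts. By normalized counts P_Bb was at 0.614 of P_BB (interval 0.538 to 0.703) and at 0.526 of M_BB (0.463 to 0.597). SINVm1_gene_07961, with the values given for the first 10, was at 0.646 in P_BB relative to M_BB (0.633 to 0.660) and at 0.863 in P_Bb relative to P_BB (0.842 to 0.884). Relative to M_BB, its level in P_Bb was 0.558 (0.546 to 0.570). For both entries P_Bb and M_BB stood farthest apart.

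SINVm1_gene_07111 had 3394, 4024 and 5091 TPM, with P_BB between the other libraries. SINVm1_gene_13366 had 894, 1108 and 1296 TPM and SINVm1_gene_05150 had 800.3, 993 and 1157. All 5 stood lowest in P_Bb and highest in M_BB. Of the 23 members with a ratio of at least 1.2, 8 had this order, 6 had the reverse and 9 had another. The members with the largest ratios lie nearest to the 2-fold limit of the rule, beyond which SINVm1_gene_05940 and SINVm1_gene_13864 had the same order.

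**Figure D3:**
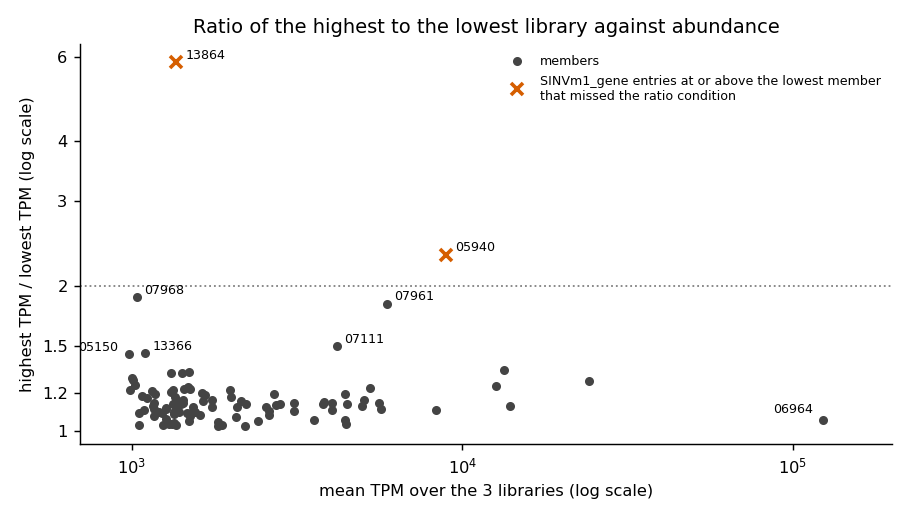
Highest TPM divided by lowest TPM over the 3 libraries (y axis, log scale) against mean TPM (x axis, log scale) for the 100 members (dots), with the 2-fold limit dotted. Crosses mark SINVm1_gene_05940 and SINVm1_gene_13864, the SINVm1_gene entries of like abundance that missed the condition, at 2.32 and 5.84, and numbers are the last digits of the identifiers.

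SINVm1_gene_12026, the entry listed as polyadenylate-binding protein 1, had 916, 919 and 1184 TPM in P_Bb, P_BB and M_BB. The polygyne libraries were alike, with a normalized count ratio of P_Bb to P_BB of 1.02 (interval 0.973 to 1.07), and P_BB was at 0.780 of M_BB (0.749 to 0.813). The study's lists of genes that differ by genotype or social form hold 43 SINVm1_gene identifiers, of which this member is 1, on the social form list with monogyne workers higher. The lists come from the study's larger set of antennal libraries. Those may hold the same amplified cDNA as the pools used here, so the listing is not taken as independent of these values. None of the 16 identifiers on the genotype list was a member (0 of 16), and the most abundant of these had a mean TPM of 151. The members are only 100 of 15589 SINVm1_gene entries and were chosen for a ratio under 2-fold, so nothing is read from these counts.

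Between pairs of libraries the members as a set moved little. On the log2(normalized count + 1) scale, the ratio of P_Bb to P_BB had a median of 0.08, against 0.03 over all 9260 entries, and 69 members were higher in P_Bb and 31 in P_BB. The median ratio of P_BB to M_BB was -0.02, against 0.01 over all entries, with 37 members higher in P_BB. The median ratio of P_Bb to M_BB was 0.04, against 0.03, with 58 higher in P_Bb. A difference of at least 1.5-fold was found for 1 member in P_Bb against P_BB (SINVm1_gene_07968), for 1 in P_BB against M_BB (SINVm1_gene_07961) and for both of them in P_Bb against M_BB. Over all entries the shares past 1.5-fold were 11%, 13.7% and 14.2% for these pairs. Over entries with at least the reads of the lowest member they were 0.48%, 1.92% and 1.83%. The members were chosen on the same contrasts, so nothing is read from these counts.

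The members are deep enough for small differences to exceed counting error. The 95% counting interval of the normalized ratio lay off 1 for 69 members in the ratio of P_Bb to P_BB, against 17.5% of all entries, for 57 in that of P_BB to M_BB, against 24.8%, and for 65 in that of P_Bb to M_BB, against 26.9%. Among entries with at least the reads of the lowest member, the shares were 29.8%, 41.4% and 45.2%. The members had a median of 2798 normalized counts and the lowest of them 321, so neither background is matched to them in depth. At the same time, 91, 89 and 80 of the 100 members were within 1.2-fold in these pairs. Such differences therefore exceeded the counting error of 2 pooled libraries, while the spread between colonies or amplifications was not measured.

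P_BB was seldom the highest library. By TPM, 49 members were highest in P_Bb, 40 in M_BB and 11 in P_BB, and 43 were lowest in P_BB. Among all entries compared, 32.3% were highest in P_Bb, 36.7% in M_BB and 31.0% in P_BB, and 31.0% were lowest in P_BB. Among SINVm1_gene entries with at least the reads of the lowest member, these shares were 32.3%, 41.2%, 26.5% and 32.6% in turn. The 40 members highest in M_BB were thus close to the share of that set. The count of 11 became 13 with normalized counts and 12 with each of the other scalings (edgeR TMM, DESeq2 and library totals). Between the orders of the libraries, 26 members ran P_BB, M_BB, P_Bb from lowest to highest, 23 ran P_Bb, P_BB, M_BB, and 23 ran M_BB, P_BB, P_Bb. Only 4 members ran M_BB, P_Bb, P_BB and 7 ran P_Bb, M_BB, P_BB. SINVm1_gene_06964 was among these 7. The count of 43 lowest in P_BB by TPM became 45 with normalized counts, 43 with edgeR TMM, 46 with DESeq2 and 47 with library totals. By normalized counts, 23.6% of the SINVm1_gene entries with at least the reads of the lowest member were highest in P_BB and 36.4% were lowest there. Why P_BB was seldom the highest library was not tested.

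**Figure D4:**
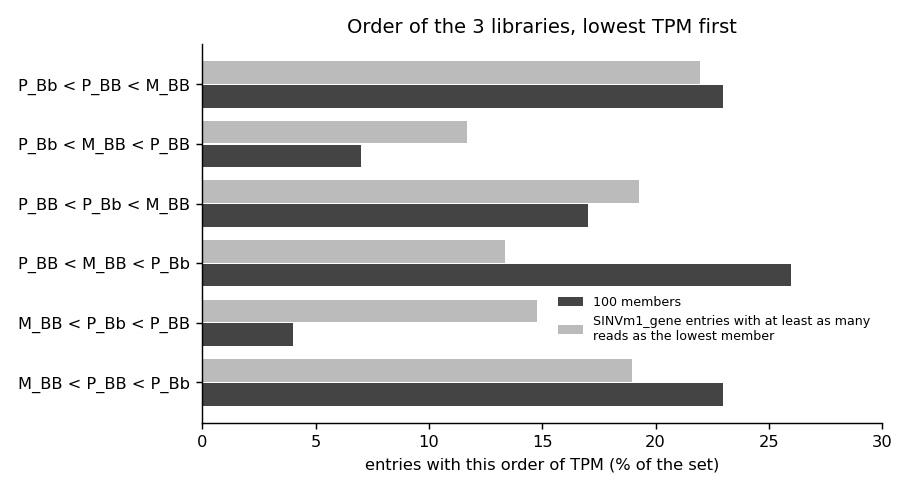
Percent of the 100 members (dark bars) and of the 2152 SINVm1_gene entries with at least the reads of the lowest member and no tied values (light bars) that show each order of the 3 libraries by TPM, lowest first. Orders that end in P_BB hold 7 and 4 members against 11.7% and 14.8% of the light set.

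Members chosen without a library could be read in that library independently of the choice. When the rule was applied to P_BB and M_BB alone, its 100 entries held 40.0% of the TPM of those libraries and 40.1% in P_Bb, where all 100 were within 2-fold of their mean in the choosing libraries. When it was applied to P_Bb and M_BB, the entries held 39.3% there and 39.1% in P_BB, again with all 100 within 2-fold. When it was applied to P_Bb and P_BB, they held 40.0% there and 40.1% in M_BB, with 99 within 2-fold. The exception was SINVm1_gene_05940, at 2.02 times its polygyne mean. Of the 2155 SINVm1_gene entries with at least the reads of the lowest member, 99.4% were under 2-fold between every pair of libraries. Nearly all entries of such counts would thus be within 2-fold, and nothing is read from the counts of 100, 100 and 99. The 3 choices shared 99, 98 and 97 entries with the members. The median log2 ratio of the library left out to the mean of the others was 0.05 for P_Bb, -0.05 for P_BB and -0.01 for M_BB. In P_BB, 71 of the 100 entries were below their mean in the choosing libraries and 29 above, against 40 and 60 in P_Bb. The same counts over all entries were not made, so nothing is read from these.

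The members were short. Their coding length (97 of the 100 lengths are multiples of 3, as are 99.3% of those of all SINVm1_gene entries, so the models hold no untranslated regions) had a median of 552 bases, with quartiles of 388 and 1056. The 7897 SINVm1_gene entries that averaged 10 normalized counts or more had a median of 1368. Of the members, 56% were shorter than 600 bases and 12% were shorter than 300, against 15.5% and 2.19% of those entries. At the other end, 12% of the members and 45.2% of those entries had 1500 bases or more. The count filter leaves out many short entries. Over all 15589 SINVm1_gene entries, the median was 831 bases, with 37.2% under 600, 13.1% under 300 and 27.9% of 1500 or more. The share of members under 300 bases was thus not above that of the whole gene set. Members below 600 bases held 29.5% of all TPM and 5.99% of expected counts, as means over the libraries, and the longer members held 9.81% of TPM and 12.5% of counts. The longer members were therefore the larger part by reads and the smaller part by TPM. The lengths enter the rule through TPM, so this is a description of the choice.

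**Figure D5:**
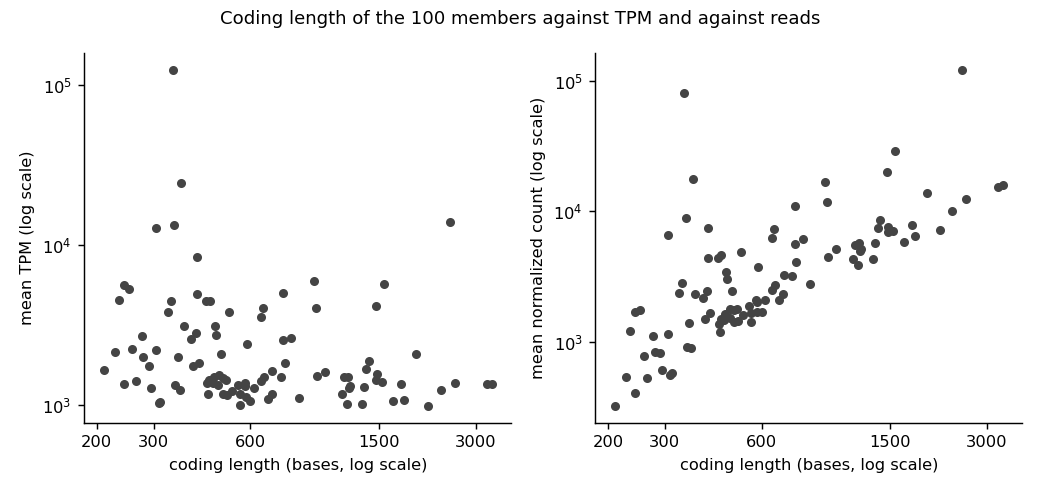
Mean TPM (left) and mean normalized count (right) of the 100 members against coding length, all on log scales. Mean TPM had a Spearman's rho of -0.30 with length and mean normalized count a rho of 0.72, as a description over members chosen by TPM.

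The first 20 members had a median of 408 bases and the last 20 of 641. The shortest members were SINVm1_gene_03634 with 210 bases, SINVm1_gene_13770 with 228 and SINVm1_gene_12996 with 234. SINVm1_gene_03634 had 1750, 1517 and 1654 TPM in P_Bb, P_BB and M_BB, on 314, 287 and 365 expected counts. SINVm1_gene_13770 had 2247, 2222 and 1948 TPM on 521, 540 and 551 expected counts. SINVm1_gene_12996 was more abundant, at 4608, 4138 and 4724 TPM. The longest were SINVm1_gene_02647 with 3369 bases and 1342, 1412 and 1290 TPM, SINVm1_gene_13926 with 3255 bases and 1328, 1298 and 1410 TPM, and SINVm1_gene_06323 with 2592 bases and 1465, 1368 and 1291 TPM. SINVm1_gene_02647 took 15259, 16036 and 16901 expected counts for a TPM below that of SINVm1_gene_03634, which took the fewest. The ratios of these 6 by TPM ran from 1.09 to 1.15.

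Effective length weighs on the TPM of short entries. It was shorter than the full length by up to 175 bases in P_Bb, 170.2 in P_BB and 169.8 in M_BB, so that a median of 69.1% of a member's length counted, from 25.02% for SINVm1_gene_03634 to 94.9% for SINVm1_gene_02647. The median over the 7897 entries was 87.5%. For SINVm1_gene_06964 the effective lengths were 174, 178 and 179 of 345 bases. When expected counts were divided by full coding length instead and rescaled to the sum of TPM, SINVm1_gene_06964 still ranked first and held 8.70%, 9.24% and 8.83% in P_Bb, P_BB and M_BB. The same 100 members then held 33.5%, 33.2% and 33.2%. On that scale 91 of the members stayed among the 100 most abundant stable entries, and SINVm1_gene_03634 was not among them.

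TPM and normalized counts mostly gave the same ratio for a member. The 3 for which they differed most were SINVm1_gene_07504, with 1.16 by TPM and 1.06 by normalized counts, SINVm1_gene_07961, with 1.84 and 1.79, and SINVm1_gene_05150, with 1.45 and 1.41. SINVm1_gene_07504 is an entry of 3 transcripts, whose length is weighted by their estimated shares in each library. Its TPM was 1437, 1419 and 1239. A single transcript stands behind 97 of the members.

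The division of reads among similar entries left a small uncertainty relative to the counts of the members. The posterior standard deviation of the count, the uncertainty that comes from reads fitting more than 1 entry, was at least 1 count in some library for 38% of the members, against 9.41% of the 7897 entries, and was 0 in every library for 7% against 39.1%. Relative to the count it reached 1% for no member (0 of 100), against 9.03% of those entries. In absolute counts the members were thus more often affected, at higher counts. It was largest for SINVm1_gene_01193, at 0.823% of the count, followed by SINVm1_gene_10917 at 0.658% and SINVm1_gene_13932 at 0.371%. SINVm1_gene_01193 had 1864, 1916 and 2198 TPM, SINVm1_gene_10917 had 1313, 1248 and 1241, and SINVm1_gene_13932 had 993, 1088 and 892. For SINVm1_gene_06964 it was 0.003%. Reads were counted without strand, so those of an entry and of an antisense partner could not be told apart by this measure.

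The deposited credibility interval of TPM, in its widest library, spanned a median of 7.93% of the posterior mean TPM over the members, from 1.23% for SINVm1_gene_03973 to 23.1% for SINVm1_gene_03634. These intervals did not overlap for 50 members in P_Bb against P_BB, 46 in P_BB against M_BB and 52 in P_Bb against M_BB. Over all 9260 entries compared, the shares were 7.12%, 13.3% and 14.7%, and over those with at least the reads of the lowest member they were 15.7%, 27.4% and 30.2%. The members had a median of 2798 normalized counts, the lowest of them 321, so these shares are not matched to them in depth. They did not always hold the point estimate. The TPM lay above its interval for 25, 22 and 26 members in the 3 libraries and below it for none (0 in each). SINVm1_gene_06964 had a TPM of 121306 in P_Bb and an interval of 117407 to 119024 there. The posterior mean TPM was a median 0.975, 0.976 and 0.977 times the TPM over the members, and by posterior mean TPM the members held 38.7%, 38.3% and 38.1%.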

How the data were processed

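The 3 antennal libraries, 150-base paired reads from pools of 4 colonies, were quantified by the authors with Bowtie and RSEM on transcript models without strand information, and versions for these libraries were not given in the sources used here. Deposited expected counts (estimated counts, not normalized) and TPM (expected counts per effective length, scaled by RSEM) were used as deposited, as were posterior means, posterior standard deviations, credibility intervals (their level was not given in the sources used here) and lengths. The authors' transcript models on the genome and a file of expression patterns held no values for these entries and were not used. Sequences and positions were not analysed here.

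Counts were divided by 75th-percentile size factors over all entries (0.938, 0.958 and 1.11 for P_Bb, P_BB and M_BB). Log2 ratios used a pseudocount of 1, which understates changes of low genes, and entries averaging 10 or more normalized counts served as background. Ratios of single members carry 95% Clopper-Pearson intervals on rounded counts. Named entries were the 10 of highest mean TPM, the extremes of ratio, length, rank change, posterior deviation and difference between TPM and count ratios, the entries beside both limits, listed members, and the 3 most abundant XLOC and SiOR entries. SINVm1_gene_12026 was the listed member. With 1 library per class no test was made. The members and lists were chosen with earlier results of these data known. Alternatives used edgeR 4.0.16 and DESeq2 1.42.0 factors. The calculations were tested on simulated data.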

Additional observations from a re-analysis of the deposited data

How the results depend on the processing

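No paired analysis was possible because there was a single library per class. Values here are means over the libraries. The share of TPM, 39.3% as reported, became 31.7% when members were ranked by normalized count, 38.5% with a ratio under 1.5-fold, 40.1% with no ratio condition, 41.0% over all entries, 15.5% with effective lengths of at least 300 bases, 17.3% with posterior deviations under 1 count, 33.6% with counts per full coding length (chosen after seeing the data), 40.1% when chosen without P_Bb or without M_BB, 33.0% for 50 entries and 46.5% for 200. The requirement on effective length and that on posterior deviations leave out SINVm1_gene_06964 by construction. The share of expected counts, 18.5%, became 23.6%, 17.6%, 18.7%, 23.9%, 16.3%, 7.38% and 19.6% under the first 7 of these in turn, and 18.9%, 18.4% and 18.6% when chosen without P_Bb, P_BB or M_BB. Of the members, 47 were kept when ranked by count, 60 with the effective length and 62 with the posterior limit. The median length became 1946 bases by count and 789 with the effective length, and the median ratio became 1.11 by count. Entries past 1.5-fold between P_Bb and P_BB, P_BB and M_BB, and P_Bb and M_BB numbered 1014, 1272 and 1319. They became 2584, 3044 and 3178 at a lower fold threshold, 279, 384 and 406 past 2-fold, 4284, 4511 and 4622 with no filter, 57, 176 and 181 at 100 or more counts, and 11, 44 and 42 at the count of the lowest member (chosen after seeing the data). Over all SINVm1_gene entries the median length was 831 bases with no filter and 1647 at 100 or more counts, against 1368. The causes were not tested. The other 80 values stayed within their margins, and no median log2 ratio changed sign with any scaling or pseudocount.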

Other observations

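Among the members, 4 pairs carry consecutive numbers. SINVm1_gene_08434 had 1486, 1400 and 1529 TPM in P_Bb, P_BB and M_BB beside 1844, 1798 and 1824 for SINVm1_gene_08435. SINVm1_gene_03633 had 1424, 1269 and 1398 beside 1750, 1517 and 1654 for SINVm1_gene_03634, both lowest in P_BB and highest in P_Bb. SINVm1_gene_04780 had 1319, 1328 and 1374 beside 1829, 1783 and 1630 for SINVm1_gene_04781, in opposite orders. SINVm1_gene_07968, with 689, 1117 and 1306, stood beside SINVm1_gene_07969, with 1124, 1144 and 1249, both lowest in P_Bb and highest in M_BB. These pairs were picked after their values were seen, and whether consecutive numbers lie side by side in the genome was not tested.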
